A study of Mus musculus with 6 samples.

Results

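The genes described here encode the machinery that couples ATG8 proteins to the membrane lipid phosphatidylethanolamine. They are 10 genes, chosen by symbol from a list of autophagy genes, of 54532 genes in the count table. Map1lc3a, Map1lc3b, Gabarap, Gabarapl1 and Gabarapl2 encode the ATG8 proteins, and Atg3, Atg5, Atg7, Atg12 and Atg16l1 encode the enzymes and scaffold that attach them to the lipid. All 10 were matched to 1 row each through GENCODE M21, and all 10 passed the filter on low counts, beside 14715 tested genes in all. Expression was measured by RNA sequencing of quadriceps muscle from mouse pups at postnatal day 10. The Myf5Cre-Pcyt2 group (genotype Myf5Cre-Pcyt2 flox/flox) and the control group (Pcyt2 flox/flox) had 3 libraries each. Both groups carry the floxed Pcyt2 allele and were kept on chow, and only the first is labelled as carrying Cre, which is driven from the Myf5 gene of muscle precursors. Effects of Cre itself and of Pcyt2 loss cannot be told apart in this design, and cells of the muscle that do not descend from Myf5-expressing precursors would keep the allele intact.

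In macroautophagy a double membrane grows around cytoplasm and carries it to the lysosome. ATG4 proteases trim a new ATG8 protein so that it ends in glycine. ATG7 then activates it, ATG3 receives it, and a complex of ATG5 joined to ATG12 together with ATG16L1 directs its transfer to phosphatidylethanolamine in the growing membrane. The lipid-bound form recruits cargo receptors, and in skeletal muscle the pathway is known for turning over mitochondria and contractile protein. PCYT2 makes CDP-ethanolamine, a precursor of the same lipid that the ATG8 proteins are attached to.

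The end of each ATG8 coding sequence shows the residue on which lipidation depends, and these ends are printed because they mark where phosphatidylethanolamine is joined and how the members differ there. Each line runs 5′ to 3′ on the plus strand of the GRCm38 transcript annotated as principal in GENCODE M21, up to and including the stop codon, with the codon of the glycine that receives the lipid in capitals.
Map1lc3a: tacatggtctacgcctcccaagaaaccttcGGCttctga
Map1lc3b: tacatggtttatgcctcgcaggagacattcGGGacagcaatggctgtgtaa
Gabarap: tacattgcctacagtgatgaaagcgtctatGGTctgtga
Gabarapl1: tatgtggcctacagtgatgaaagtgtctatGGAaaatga
Gabarapl2: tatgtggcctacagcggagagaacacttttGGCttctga
The glycine was codon 120 in Map1lc3a and Map1lc3b and codon 116 in Gabarap, Gabarapl1 and Gabarapl2. Map1lc3b has 5 codons after it for an ATG4 protease to remove, and each of the other genes has 1. The stretches lie at chr2:155277599-155277637 (Map1lc3a), chr8:121596720-121596770 (Map1lc3b), chr11:69994486-69994524 (Gabarap), chr6:129541129-129541167 (Gabarapl1) and chr8:111952367-111952405 (Gabarapl2).

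The coding sequences of the ATG8 genes are related but separable in sequencing. Map1lc3a and Map1lc3b were 74.7% identical over an alignment of the whole coding sequence, Gabarap and Gabarapl1 were 74.9% identical, and any LC3 gene against any GABARAP gene was 50.6 to 55.2% identical. No ATG8 gene shared a run of 50 bases with another ATG8 gene, and Atg3, Atg5 and Atg7 shared none with any gene. Map1lc3b, Atg12 and Atg16l1 shared runs with 388, 252 and 50 other genes, and sharing among themselves was not examined. Some processed pseudogenes do share such runs, with 12.2% of the 50-base words of the Gabarapl2 transcripts and 6.01% of those of Map1lc3b found in other genes. The pseudogenes that share most with Gabarapl2 (Gm3724, Gm6051, Gm5829 and Gm6059) had at most 1 count in any library, and Gm6055, which shares most with Map1lc3b, had 7 to 22. Gabarapl1 overlaps the transcript 1700101I11Rik on the opposite strand over 28.3% of its exon bases. That transcript had 3 to 9 counts per library, and the labels do not state whether counting used strand, so its reads and those of Gabarapl1 cannot be told apart there.

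Library totals lay between 17775898 and 20446920 counts. Levels are TMM-normalised CPM, which is each count as a share of the library total, scaled to CPM after a correction of the totals with TMM factors. A log2 fold change is the Myf5Cre-Pcyt2 level over the control level. Of 14715 tested genes, 1328 (9.02%) were higher and 1411 (9.59%) lower in Myf5Cre-Pcyt2, with edgeR's quasi-likelihood test and an adjusted p under 0.05, which is 18.6% together. Pcyt2 itself had 280, 328 and 272 counts in Myf5Cre-Pcyt2 against 353, 277 and 277 in control. Scaled, this was 14.9, 14.3 and 12.6 CPM in Myf5Cre-Pcyt2, against 18.7, 16.1 and 16.05 CPM in control. At this TMM scaling its level was lower in every Myf5Cre-Pcyt2 library than in any control library, while the raw counts overlapped. It did not pass the threshold (log2 fold change -0.28, SE 0.11, adjusted p = 0.0944 with edgeR). With library size alone as the scaling, the log2 fold change of Pcyt2 was -0.07 (adjusted p = 0.706 with edgeR). Pcyt2 passed in 0 of 14 alternative fits. Which exons lie between the loxP sites is not stated in the labels, and a count over the whole gene cannot separate them from the rest. The summed level of 8 skeletal muscle fibre markers was 94530 to 119553 CPM in Myf5Cre-Pcyt2 and 138252 to 191994 CPM in control. Both groups thus carried the labelled tissue, but the sums did not overlap, with Myf5Cre-Pcyt2 lower.

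None of the 10 genes passed the threshold in either direction with edgeR, against 18.6% of all tested genes, 9.02% higher and 9.59% lower. At an unadjusted p under 0.05, 1 of the 10 passed (34.5% of all tested genes did). Their median log2 fold change was -0.13, where the median of all tested genes was 0.00, and the 10 values ran from -0.29 for Map1lc3b to 0.03 for Atg3. Of the 10, 8 were below 0, as were 50.2% of all tested genes. In 3 of the 10 (Map1lc3b, Gabarap and Atg16l1) the groups did not overlap, each time with Myf5Cre-Pcyt2 lower. By comparison, 39% of all tested genes had groups that did not overlap, 19.2% with Myf5Cre-Pcyt2 lower and 19.9% with it higher. With library size alone as the scaling, the groups of Gabarap and Atg16l1 overlapped and those of Map1lc3b did not. At that scaling the groups of Gabarapl1, Atg3 and Atg7 did not overlap either, with Myf5Cre-Pcyt2 higher. That scaling also moved the median log2 fold change of all tested genes up by 0.21, and 86.6% of its calls were higher, against 48.5% with TMM. The shares of all tested genes without overlap given above are at TMM scaling. The matching shares at library size alone were not computed, so these members have no share to stand beside. Over the 10 genes the 95% limits of the Myf5Cre-Pcyt2 level ran from 69.2 to 118% of the control level. In whole muscle, fewer cells of a type and less RNA per cell cannot be told apart.

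**Figure D1:**
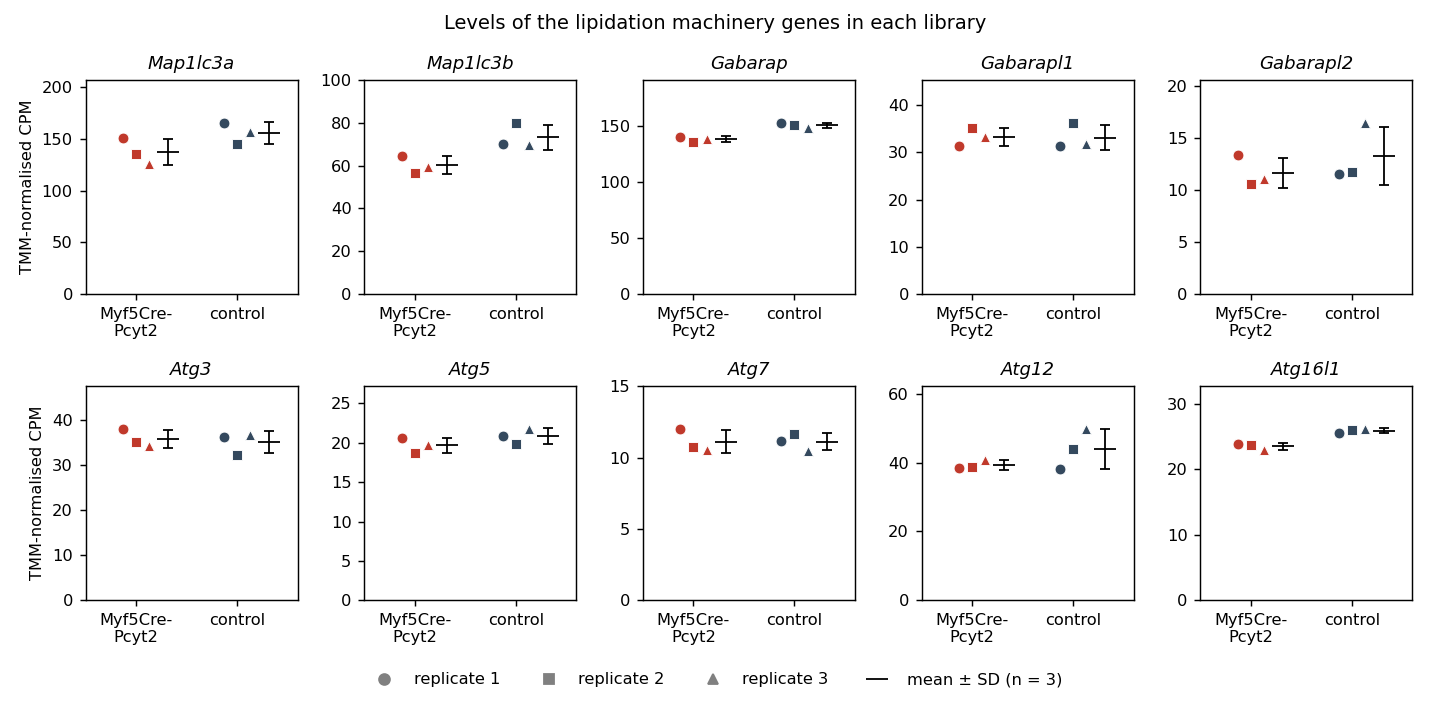
Each panel plots 1 gene, with TMM-normalised CPM on a vertical axis that starts at 0, the 3 Myf5Cre-Pcyt2 libraries on the left and the 3 control libraries on the right; bars are the mean ± SD. The groups stand apart for Map1lc3b, Gabarap and Atg16l1 and overlap for the other genes, and control replicate 3 is the highest library for Gabarapl2 and Atg12.

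Map1lc3b encodes LC3B, the ATG8 protein most often followed as a marker of autophagosomes, and it was the member with the smallest p. It lies on chromosome 8 (121590361 to 121598760, plus strand, GRCm38). Its level was 64.7, 56.5 and 59.3 CPM in Myf5Cre-Pcyt2, against 70.3, 80.1 and 69.5 CPM in control. Every Myf5Cre-Pcyt2 library lay below every control library, with the widest gap between Myf5Cre-Pcyt2 replicate 2 and control replicate 2. With library size alone, those replicates had 63.2 CPM in Myf5Cre-Pcyt2 and 68.3 CPM in control, a much narrower gap. The TMM factors were 1.03, 1.12 and 1.08 in Myf5Cre-Pcyt2 and 0.968, 0.853 and 0.972 in control. The means were 60.2 ± 4.19 CPM in Myf5Cre-Pcyt2 and 73.3 ± 5.87 CPM in control (SD, n = 3 each). The log2 fold change was -0.29 (SE 0.09), or 82.1% of the control level with a 95% interval of 71.4 to 94.3%, and edgeR's adjusted p was 0.0515, just outside the threshold. Over 14 alternatives the adjusted p ran from 0.0399 to 0.555 and passed in 5: DESeq2, DESeq2 size factors, no filter, a filter of 1 CPM in 3 libraries, and without Myf5Cre-Pcyt2 replicate 1. The direction was negative in all 14, and the fold change was -0.07 when library size alone was used as the scaling, a choice that moved the median of all tested genes up by 0.21.

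**Figure D2:**
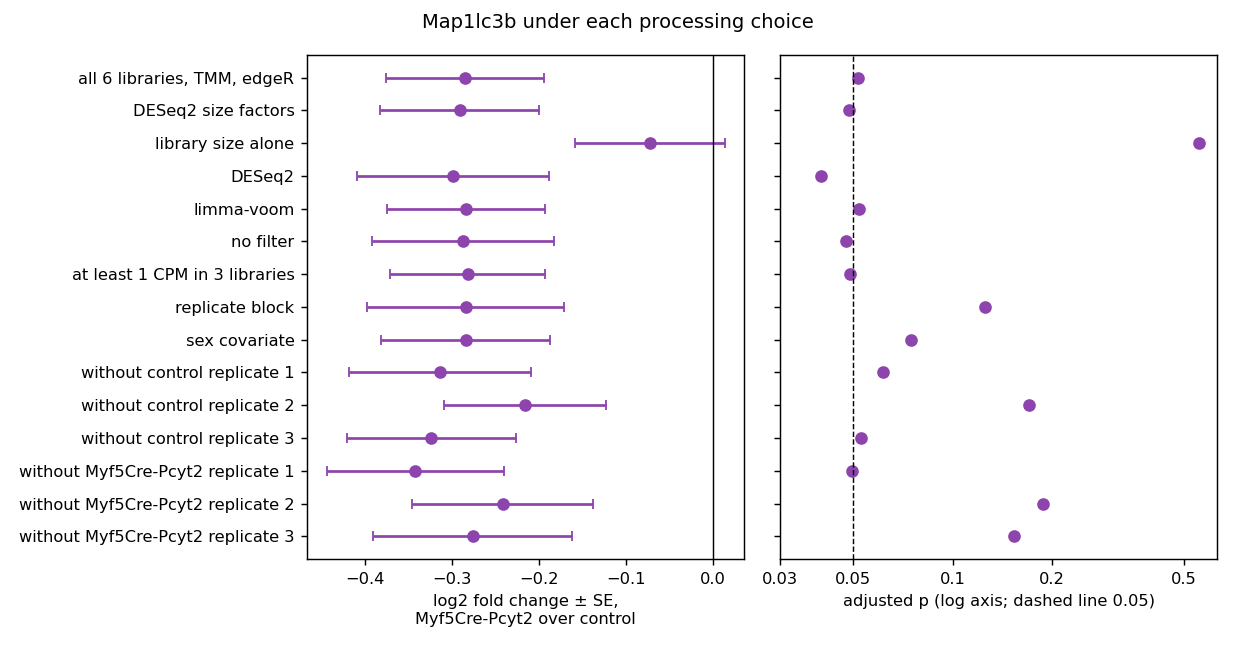
The left panel gives the log2 fold change of Map1lc3b, Myf5Cre-Pcyt2 over control, with its SE, for the reported fit in the top row and for each of 14 alternatives; the right panel gives the adjusted p on a log axis with a dashed line at 0.05. The fold change stays below 0 throughout, and the adjusted p lies on both sides of the line, with 5 alternatives under it.

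Map1lc3a, on chromosome 2 (155276297 to 155278073, plus strand), encodes LC3A, the closest relative of LC3B. Its level was 150, 135 and 125 CPM in Myf5Cre-Pcyt2, against 166, 144 and 156 CPM in control. The groups overlapped, since Myf5Cre-Pcyt2 replicate 1 lay above control replicate 2. The log2 fold change was -0.18 (SE 0.10, adjusted p = 0.208 with edgeR). Gabarap (chromosome 11, 69991143 to 69994951, plus strand), which encodes the founding member of the GABARAP branch, had 140, 135 and 139 CPM in Myf5Cre-Pcyt2 and 153, 150 and 148 CPM in control. Replicates were tight, with a coefficient of variation of 1.89% in Myf5Cre-Pcyt2 and 1.6% in control, and the groups did not overlap. The difference was small, at 91.8% of the control level (95% interval 81.4 to 103%), and did not pass (log2 fold change -0.12, SE 0.08, adjusted p = 0.288 with edgeR).

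Gabarapl1 (chromosome 6, 129533160 to 129542346, plus strand), a GABARAP-branch gene known for induction by FoxO factors in wasting muscle, had nearly the same mean in both groups. Its level was 31.2, 35.1 and 33.2 CPM in Myf5Cre-Pcyt2, against 31.4, 36.3 and 31.7 CPM in control, so the groups lay on top of each other. The log2 fold change was 0.00 (SE 0.09), with a 95% interval of 87.2 to 115% of the control level (adjusted p = 0.982 with edgeR). Gabarapl2 (chromosome 8, 111940703 to 111953612, plus strand), which encodes GATE-16, was the least precise member. It had 13.3, 10.6 and 11.1 CPM in Myf5Cre-Pcyt2 and 11.5, 11.8 and 16.5 CPM in control. Control replicate 3 was the highest library and the others overlapped, and the log2 fold change was -0.19 (SE 0.16, adjusted p = 0.422 with edgeR). With that library left out the log2 fold change was -0.0037.

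Ratios of counts within a library do not depend on the scaling of libraries. The count of Map1lc3b was 2.07, 1.61 and 1.79 times that of Gabarapl1 in the Myf5Cre-Pcyt2 libraries, against 2.24, 2.21 and 2.19 times in the control libraries. The groups did not overlap, and the control libraries were much closer to each other. This pair holds the lowest and the highest ATG8 fold change and was chosen for that, so the difference is given without a test. The ratio of Map1lc3a to Gabarap was 1.07, 0.998 and 0.904 in Myf5Cre-Pcyt2 and 1.08, 0.960 and 1.05 in control, with overlapping groups. Summed over the 5 ATG8 genes the level was 400.2, 373 and 368 CPM in Myf5Cre-Pcyt2, against 432, 423 and 422 CPM in control. Those sums did not overlap, but this rests on the TMM scaling. With library size alone, chosen for the sums after the data were seen, they were 410.3, 417 and 397 CPM in Myf5Cre-Pcyt2 and 417, 361 and 409.8 CPM in control, which overlap.

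The 5 enzyme genes had a median log2 fold change of -0.08, beside -0.18 for the 5 ATG8 genes, and the difference between these medians was not tested. Atg7 (chromosome 6, 114643097 to 114860614, plus strand) encodes the E1-like enzyme that activates both ATG8 proteins and ATG12. It had 12.01, 10.7 and 10.5 CPM in Myf5Cre-Pcyt2 and 11.2, 11.7 and 10.5 CPM in control. The groups overlapped throughout, and the log2 fold change was 0.00 (SE 0.11, 95% interval 84.3 to 118% of control, adjusted p = 0.989 with edgeR). Atg3 (chromosome 16, 45158785 to 45188538, plus strand) encodes the E2-like enzyme that hands ATG8 to the lipid. It had 38.1, 35.2 and 34.4 CPM in Myf5Cre-Pcyt2 against 36.2, 32.3 and 36.8 CPM in control, again overlapping (log2 fold change 0.03, SE 0.09, adjusted p = 0.835).

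Atg5 and Atg12 encode the proteins joined into the conjugate that directs the transfer, and Atg16l1 encodes the scaffold that brings the conjugate to the membrane. Atg5 lies on chromosome 10 (44268358 to 44364291, plus strand), Atg12 on chromosome 18 (46730144 to 46741580, minus strand) and Atg16l1 on chromosome 1 (87755870 to 87792428, plus strand). Atg5 had 20.6, 18.7 and 19.8 CPM in Myf5Cre-Pcyt2 and 20.9, 19.8 and 21.8 CPM in control, with overlapping groups (log2 fold change -0.08, SE 0.09, adjusted p = 0.541 with edgeR). Atg12 had 38.3, 38.8 and 40.9 CPM in Myf5Cre-Pcyt2 and 38.1, 44.0 and 49.8 CPM in control. The control libraries of Atg12 spread more widely than those of Myf5Cre-Pcyt2, with coefficients of variation of 3.47% in Myf5Cre-Pcyt2 and 13.3% in control (log2 fold change -0.16, SE 0.10, adjusted p = 0.297). With control replicate 3 left out the log2 fold change of Atg12 was -0.062, and with control replicate 1 left out it was -0.25. Atg16l1 had 23.9, 23.7 and 22.9 CPM in Myf5Cre-Pcyt2 and 25.5, 25.9 and 26.2 CPM in control. Its groups did not overlap, and the difference was again small, at 90.9% of the control level (95% interval 80.5 to 103%, log2 fold change -0.14, SE 0.08, adjusted p = 0.246 with edgeR). With library size alone as the scaling, Map1lc3a, Gabarap, Gabarapl2, Atg5, Atg7, Atg12 and Atg16l1 all had fold changes above 0, of 0.01 to 0.21. None of their directions therefore holds under every scaling. Gabarapl1 and Atg3 had log2 fold changes of 0.22 and 0.24 at that scaling.

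**Figure D3:**
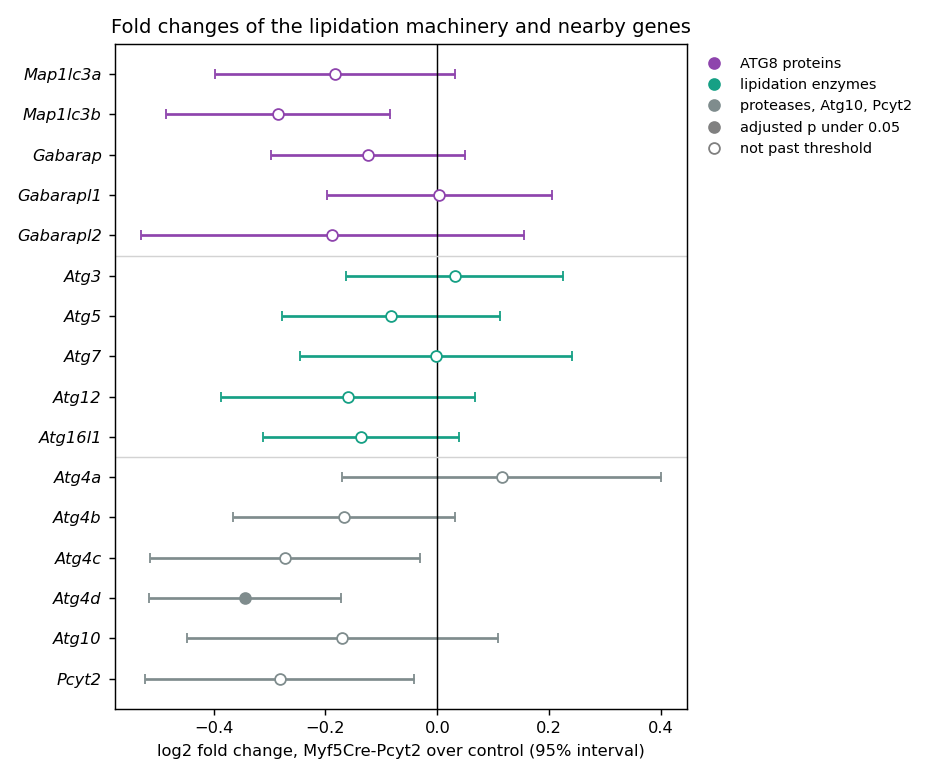
Points are log2 fold changes, Myf5Cre-Pcyt2 over control, with 95% intervals, for the ATG8 genes, the lipidation enzymes, and below them the ATG4 proteases, Atg10 and Pcyt2; filled points passed an adjusted p under 0.05. All 10 lipidation genes are open points between -0.29 and 0.03, and Atg4d is the filled point.

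Compared per length of transcript, Map1lc3a and Gabarap stood far above the other members in both groups. With the principal transcript as the length, Map1lc3a had 123 ± 11.4 CPM per kilobase in Myf5Cre-Pcyt2 and 140 ± 9.49 CPM per kilobase in control (SD, n = 3 each). Gabarap had 102 ± 1.93 CPM per kilobase in Myf5Cre-Pcyt2 and 111 ± 1.78 CPM per kilobase in control. Map1lc3b came next, with 23.8 ± 1.65 CPM per kilobase in Myf5Cre-Pcyt2 and 28.9 ± 2.32 CPM per kilobase in control. Gabarapl1 and Atg3 followed and did not differ from each other beyond their spread, at 18.2 ± 1.499 and 17.1 ± 1.18 CPM per kilobase in control. Atg12, Atg5, Atg16l1 and Gabarapl2 lay together between 7.92 and 9.23 CPM per kilobase in control, within the spread of Atg12 and Gabarapl2, and Atg7 was lowest at 2.95 ± 0.213 in Myf5Cre-Pcyt2 and 2.95 ± 0.157 in control. The principal transcript was chosen as a length after the data were seen. With the union of all exons as the length, which takes in every annotated exon, the level of Map1lc3b in control was 9.75 ± 0.781 CPM per kilobase, below Gabarapl1 (16.4 ± 1.36) and Atg3 (11.1 ± 0.771), and Map1lc3a and Gabarap still came first.

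As a share of the ATG8 genes per kilobase of principal transcript, Map1lc3a held 44.8 ± 1.96% in Myf5Cre-Pcyt2 and 45.6 ± 2.08% in control. Gabarap held 37.3 ± 1.54% in Myf5Cre-Pcyt2 and 36.4 ± 0.647% in control. Map1lc3b held 8.66 ± 0.334% in Myf5Cre-Pcyt2 and 9.46 ± 0.938% in control, Gabarapl1 held 6.66 ± 0.657% in Myf5Cre-Pcyt2 and 5.95 ± 0.611% in control, and Gabarapl2 held the remainder. On this scale all 5 shares overlapped between the groups. For Map1lc3b the overlap was slight, since Myf5Cre-Pcyt2 replicate 3 at 8.89% lay just above the lowest control library at 8.84%. With the union of exons as the length its share overlapped as well. As a share of counts, without length, Map1lc3b did not overlap. It held 16.17, 15.16 and 16.14% of the ATG8 counts in Myf5Cre-Pcyt2, against 16.28, 18.92 and 16.47% in control.

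**Figure D4:**
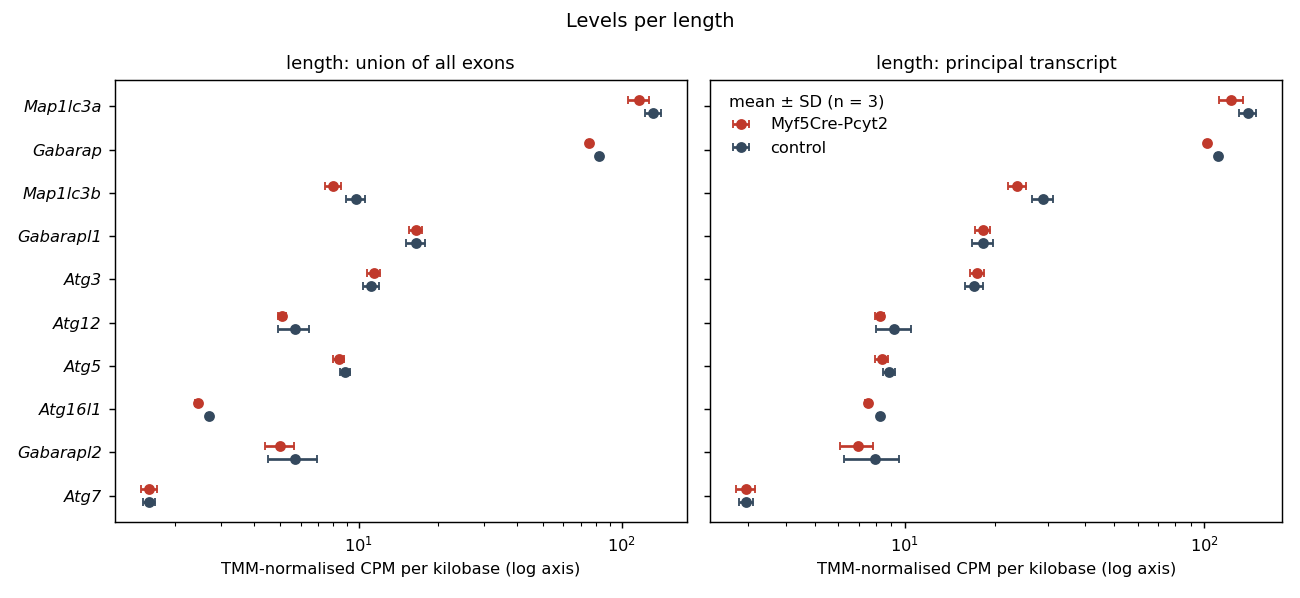
Points are the mean TMM-normalised CPM per kilobase, on a log axis, with SD over 3 libraries, for Myf5Cre-Pcyt2 (upper point of each pair) and control (lower point); the left panel divides by the union of all exons and the right panel by the principal transcript. Map1lc3a and Gabarap lead in both panels, and Map1lc3b moves from below Gabarapl1 and Atg3 on the left to above them on the right.

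Genes that act next to the lipidation step were taken from lists of the pathway. Of the 4 ATG4 proteases, which trim ATG8 proteins and also release them from the lipid, Atg4d fell and the other 3 did not pass. Over all tested genes 9.02% were higher and 9.59% lower. Atg4d had 31.0, 29.999 and 31.3 CPM in Myf5Cre-Pcyt2, against 37.8, 39.4 and 40.0 CPM in control. The groups were far apart relative to their spread, and the log2 fold change was -0.34 (SE 0.08, adjusted p = 0.0148 with edgeR). It failed to pass when scaled by library size alone (adjusted p = 0.334), under the replicate block (0.0508), and without Myf5Cre-Pcyt2 replicate 2 (0.0701) or 3 (0.0544), over a range of 0.0109 to 0.334. Atg4a, Atg4b and Atg4c had log2 fold changes of 0.11 (SE 0.13), -0.17 (SE 0.09) and -0.27 (SE 0.11), with adjusted p of 0.564, 0.215 and 0.106. Atg10, which encodes the E2-like enzyme for ATG12, had 10.998, 10.2 and 10.8 CPM in Myf5Cre-Pcyt2 and 12.6, 10.0 and 13.3 CPM in control and did not pass (log2 fold change -0.17, SE 0.13, adjusted p = 0.365).

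Across 85 genes of initiation, membrane delivery, cargo capture, fusion, the lysosome, their transcription factors and phosphatidylethanolamine supply, 84 were tested, 2 rose, 9 fell and 73 did not pass with edgeR. In all tested genes 9.02% were higher and 9.59% lower, and the median log2 fold change of the 84 was -0.15. The number lower was 1 with library size alone and 2 under the replicate block. It was 3 with control replicate 2 left out, 1 with Myf5Cre-Pcyt2 replicate 2 left out and 2 with Myf5Cre-Pcyt2 replicate 3 left out. Of 12 cargo receptors, 3 fell and 9 did not pass. Bnip3, a mitochondrial receptor that binds ATG8 proteins, had 39.3, 31.6 and 37.0 CPM in Myf5Cre-Pcyt2, against 50.7, 52.6 and 52.7 CPM in control. It stood below control in every library, at 69.2% of the control level (log2 fold change -0.53, SE 0.10, adjusted p = 0.0061), and it passed in all 14 alternatives. Optn, which encodes the receptor optineurin, fell to 37.9 ± 1.88 CPM in Myf5Cre-Pcyt2, against 50.9 ± 3.38 CPM in control (SD, n = 3 each; log2 fold change -0.42, SE 0.09, adjusted p = 0.0101 with edgeR). Optn did not pass with library size alone (0.126) or without Myf5Cre-Pcyt2 replicate 2 (0.0561), over a range of 0.00133 to 0.126. Fundc1, a receptor of the outer mitochondrial membrane, fell as well (log2 fold change -0.42, SE 0.12, adjusted p = 0.0387) but its groups overlapped, and it passed in 7 of 14 alternatives. Sqstm1, the receptor p62, had 220 ± 9.06 CPM in Myf5Cre-Pcyt2 and 242 ± 32.3 CPM in control and did not pass (SD, n = 3 each; adjusted p = 0.396 with edgeR); it was named after its values were seen.

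The list medians of the other roles ran from -0.25 for the ULK initiation complex to 0.00 for the phosphatidylinositol 3-kinase complex. Ulk2, a kinase that starts autophagosome formation, fell to 120 ± 5.99 CPM in Myf5Cre-Pcyt2, against 160 ± 22.5 CPM in control (SD, n = 3 each; log2 fold change -0.42, SE 0.11, adjusted p = 0.0247 with edgeR) and passed in 9 of 14 alternatives. Uvrag, a partner of Beclin 1 in the lipid kinase complex, rose with 0.28 (SE 0.08, adjusted p = 0.0438) and passed in 5 of 14. Snap29, a membrane fusion protein for autophagosome and lysosome, fell with -0.40 (SE 0.10, adjusted p = 0.021) and passed in 9 of 14. Among 16 lysosomal genes 2 fell and 14 did not pass, where 9.59% of all tested genes were lower. Those that fell were the protease gene Ctsb with -0.32 (SE 0.09, adjusted p = 0.0346) and the calcium channel gene Mcoln1 with -0.33 (SE 0.09, adjusted p = 0.0344). Each was past the threshold in 7 of 14 alternatives. None of 9 membrane delivery genes passed with edgeR, against 18.6% of all tested genes, and 2 of them had an unadjusted p under 0.05. Of 8 tested genes of phosphatidylethanolamine supply, 0 passed with edgeR at the adjusted threshold, and 5 had an unadjusted p under 0.05, where 34.5% of all tested genes did. Their log2 fold changes ran from -0.58 for Pemt (SE 0.20, adjusted p = 0.0705) to 0.26 for Selenoi, an ethanolamine phosphotransferase (SE 0.08, adjusted p = 0.0555). Pemt methylates phosphatidylethanolamine and so uses this lipid, although it was listed under supply. It had only 31, 38 and 34 counts in Myf5Cre-Pcyt2 and 51, 39 and 40 in control. Both Pemt and Selenoi were named after their values were seen.

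**Figure D5:**
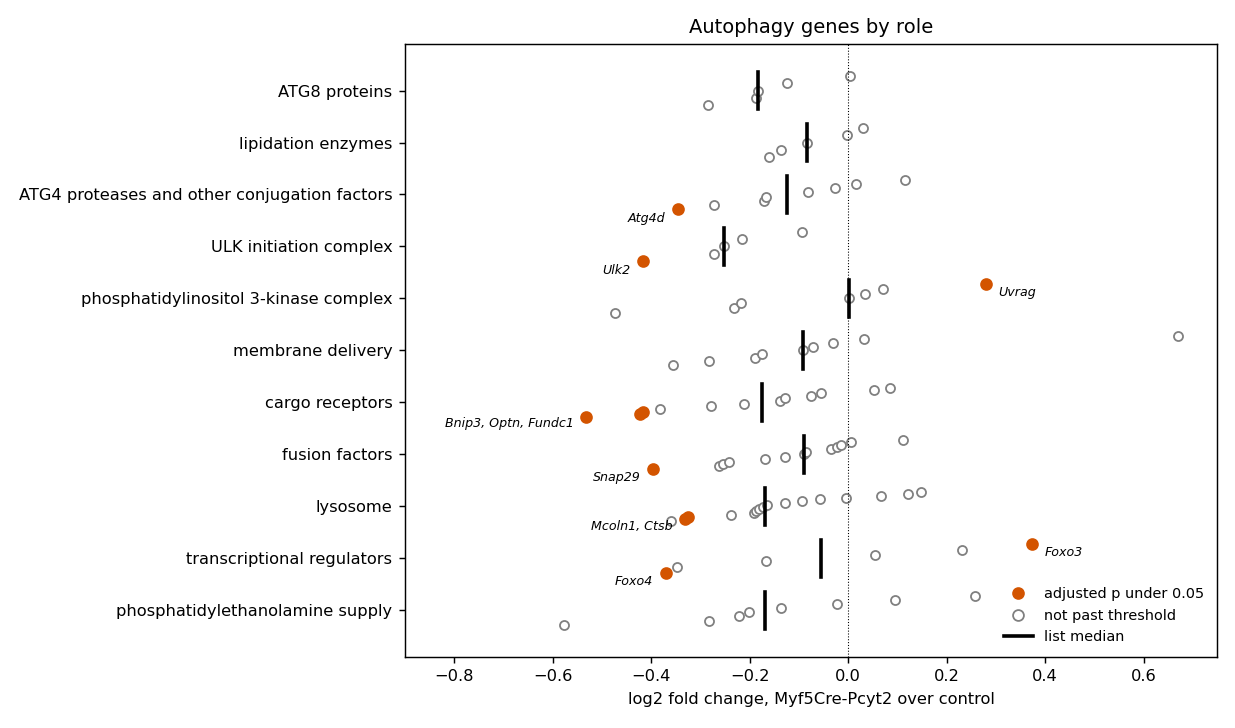
Each point is the log2 fold change, Myf5Cre-Pcyt2 over control, of 1 tested gene, arranged by role, with a black bar at the list median; filled and named points passed an adjusted p under 0.05. The lipidation genes in the top rows have no filled point, and the named points are 9 to the left of 0 and 2, Uvrag and Foxo3, to the right.

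Of 6 transcription factors known to drive these genes, 1 rose, 1 fell and 4 did not pass, beside 9.02% higher and 9.59% lower over all tested genes. Foxo3, an activator of autophagy genes in muscle, had 77.1, 70.0 and 75.4 CPM in Myf5Cre-Pcyt2, against 59.0, 59.6 and 53.1 CPM in control. It rose (log2 fold change 0.37, SE 0.08, adjusted p = 0.0147 with edgeR); with Myf5Cre-Pcyt2 replicate 3 left out the adjusted p was 0.0618, over a range of 0.00303 to 0.0618. Foxo4, a relative of Foxo3, had 99.7, 90.4 and 89.8 CPM in Myf5Cre-Pcyt2, against 115, 138 and 109 CPM in control, and fell (log2 fold change -0.37, SE 0.10, adjusted p = 0.0315, past the threshold in 9 of 14 alternatives). Tfeb, Tfe3 and Mitf, which bind the E-box CACGTG in promoters of lysosomal and autophagy genes, had log2 fold changes of -0.17 (SE 0.08), 0.06 (SE 0.10) and -0.35 (SE 0.14) and did not pass (adjusted p = 0.185, 0.732 and 0.114 with edgeR). Foxo1, another FoxO factor, had 35.2, 37.2 and 36.04 CPM in Myf5Cre-Pcyt2, against 31.8, 33.2 and 27.3 CPM in control. Its groups did not overlap, with Myf5Cre-Pcyt2 higher, and it did not pass (log2 fold change 0.23, SE 0.09, adjusted p = 0.105). Tfeb, Tfe3, Mitf and Foxo1 were named after their values were seen, to complete the list.

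Of the 10 lipidation genes, 7 had a promoter sequence in the RefSeq table for GRCm38.p6, and the 250 bases before the start that RefSeq gives were searched on both strands. CACGTG, which reads the same on both strands, was found for Atg3, Atg5 and Atg7 and in 6.02% of 32851 promoters. The Atg7 window is not upstream of the gene in GENCODE M21: the match lies within chr6:114670914-114671019, inside the gene, which starts there at 114643097. The FoxO motif GTAAACA was found in 0 of the 7 and in 3.17% of all, and TATAAA in 0 of the 7 and in 12.4% of all. The stretches around the first match in Atg3 (chr16:45158685-45158790) and the match in Atg5 (chr10:44268275-44268338) are printed to show the letters matched. They run on the plus strand with CACGTG in capitals, and the Atg3 stretch holds a further match. A match in these letters is no evidence of binding.
Atg3: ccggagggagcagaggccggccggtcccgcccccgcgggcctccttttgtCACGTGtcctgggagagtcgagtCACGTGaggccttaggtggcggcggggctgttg
Atg5: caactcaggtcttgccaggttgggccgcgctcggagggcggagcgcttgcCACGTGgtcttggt

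The 3 tested genes with the profile nearest to that of Map1lc3b, by Euclidean distance over the mean-centred log2 CPM of the 6 libraries, were Psmg2 (distance 0.0391), Ebp (0.0474) and Mapre2 (0.0562). Psmg2 encodes a proteasome assembly chaperone, Ebp a sterol isomerase, and Mapre2 a microtubule end-binding protein. Their log2 fold changes were -0.27, -0.26 and -0.29, with adjusted p of 0.0637, 0.137 and 0.048 from edgeR.

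Markers of other cell types were counted in the same libraries, where 9.02% of all tested genes were higher and 9.59% lower. Schwann cell markers rose for 4 of 6 genes, with a summed level of 610 to 828 CPM in Myf5Cre-Pcyt2 and 408 to 503 CPM in control. Satellite cell markers rose for 3 of 5 genes, with 108 to 110 CPM in Myf5Cre-Pcyt2 and 63.9 to 73.0 CPM in control. Fibroblast markers rose for 1 of 6 genes, with 16108 to 18122 CPM in Myf5Cre-Pcyt2 and 11532 to 15171 CPM in control. Of 8 skeletal muscle fibre markers 2 fell, and their log2 fold changes ran from -0.94 to 0.23 with a median of -0.49. Their summed level was lower in Myf5Cre-Pcyt2 without overlap, as given above. In the remaining lists at most 1 gene passed in a direction: of the endothelial markers 1 of 6 fell, of the erythroid markers 1 of 5 rose, of the smooth muscle and pericyte markers 1 of 5 rose and 1 fell, and none of 6 macrophage or 6 adipocyte markers passed. The summed level of the smooth muscle and pericyte markers was 1111 to 1302 CPM in Myf5Cre-Pcyt2 and 1471 to 1762 CPM in control. The summed levels of the endothelial, erythroid, macrophage and adipocyte markers overlapped between the groups. No list had a marker at 0 in every library. The part of these differences in the levels of the lipidation genes and of the 11 pathway genes that passed was not tested.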

How the data were processed

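The authors deposited raw counts per Ensembl gene, 1 column per library. Per the submitters' processing notes, the tools named are Trim Galore 0.5.0, Bowtie2 2.3.4.1, featureCounts and Subread (version 1.6.2), with the builds GRCm38 and mm10, all listed with no role or order. Annotation release, strand setting and the handling of multiply mapping reads are not stated in the labels. Symbols, positions and lengths came from GENCODE M21 and promoters from RefSeq (GRCm38.p6).

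Counts were filtered with filterByExpr, scaled with TMM and tested with edgeR 4.0.16 in R 4.3.3 (quasi-likelihood, two-sided). P-values were adjusted by Benjamini-Hochberg over 14715 genes, with a threshold of 0.05. Tables, figures and sequence steps used Python 3.11.15, pandas 2.3.3, matplotlib 3.10.9 and Biopython 1.88. The procedure was tested on simulated counts in which all genes had the same dispersion. Of 67 genes simulated with a 1.5-fold change, 46 passed. All 67 genes with a 2-fold change and all 66 with a 4-fold change passed. Of 194 calls in all, 15 were of genes simulated without a change. Changes under 1.5-fold, such as those of the members, were not simulated. Alternatives were DESeq2 1.42.0, its size factors, library size alone, limma-voom (limma 3.58.1), other filters, the replicate block, sex as a covariate, and each library left out. The members and lists were chosen with earlier results of these data known. The text names every member, pathway genes past the threshold, the ATG4 proteases, Atg10, Pcyt2 and the 3 profiles nearest to Map1lc3b by rule, and further genes chosen after their values were seen, each marked so.

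Nothing in the labels says whether replicates are separate litters, and p-values cover only the spread among the 6 libraries. Within each group, no library was a copy of another by a comparison of counts. Pairs across the groups were not compared in this way. By Xist and Y-linked genes, replicate 3 in both groups was male and the rest were female. Totals of 17775898 to 20446920 counts per library gave members 181 to 3128 counts each, and the standard errors of their log2 fold changes were 0.08 to 0.16.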

Additional observations from a re-analysis of the deposited data

How the results depend on the processing

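Of 140 member fold changes (10 genes under 14 alternatives), 5 passed the threshold, all for Map1lc3b and each making 1 lower member: DESeq2 size factors (-0.29), DESeq2 (-0.30), no filter (-0.29), 1 CPM in 3 libraries (-0.28) and without Myf5Cre-Pcyt2 replicate 1 (-0.34). Library size alone moved the median of all tested genes up by 0.21 and gave 3225 genes higher and 499 lower, or 86.6% of calls higher against 48.5% with TMM. It turned the log2 fold changes of Map1lc3a (0.021), Gabarap (0.085), Gabarapl2 (0.013), Atg5 (0.12), Atg7 (0.21), Atg12 (0.050), Atg16l1 (0.073), Atg4b (0.048) and Atg10 (0.032) above 0, and it turned the difference in the summed ATG8 level, Myf5Cre-Pcyt2 minus control, to 12.2 CPM, beside -45.5 CPM with TMM. Members near 0 also changed sign: Gabarapl1 was -0.0025 with DESeq2 size factors and -0.011 with DESeq2, and Atg7 was 0.00033 with the filter of 1 CPM. With each library left out in turn, Gabarapl1 ran from -0.040 to 0.075, Atg3 from -0.024 to 0.064, Atg7 from -0.064 to 0.035, Gabarapl2 from -0.29 to -0.0037, Atg12 from -0.25 to -0.062, Map1lc3a from -0.26 to -0.12, Atg5 from -0.12 to -0.047, Gabarap from -0.14 to -0.11, Atg16l1 from -0.15 to -0.12 and Map1lc3b from -0.34 to -0.22. The lowest magnitudes for Gabarapl2 and Atg12 came without control replicate 3, that for Map1lc3a without Myf5Cre-Pcyt2 replicate 3 and that for Atg5 without Myf5Cre-Pcyt2 replicate 2. The number of members lower ran from 0 to 1, all genes higher from 422 to 1337 and lower from 424 to 1448, and pathway genes higher from 0 to 2 and lower from 1 to 13. The lowest of these counts over all genes came without Myf5Cre-Pcyt2 replicate 2, and leaving out control replicate 2 (601 higher, 699 lower) or Myf5Cre-Pcyt2 replicate 3 (639 higher, 641 lower) also moved them by over 1.5 times. Pathway genes numbered 6 higher and 1 lower with library size alone, and 1 higher with DESeq2, with no filter and with sex as a covariate.

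The labels do not state whether replicate numbers pair the libraries. Same-numbered libraries had correlations of -0.11, -0.17 and 0.02 between their deviations from the group means. Differently numbered libraries had -0.063 to 0.16. With 3 libraries per group these values cannot decide whether the libraries are paired. With the replicate block 865 genes were higher and 866 lower, and 1 pathway gene was higher and 2 lower; the adjusted p of Map1lc3b was 0.125. The cause of these changes was not tested. Precision was lowest for Gabarapl2 (SE 0.16), and the lowest count of any member was 181, for Atg7.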
